A study of Mus musculus with 3 samples.

Results

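Immediate early genes and heat shock genes were described in single cells from mouse brain and blood. The set holds 38 genes: 32 immediate early or related inducible genes and 6 heat shock chaperones. They were listed by name as genes of the immediate early, tissue dissociation and heat shock responses, and all 38 were present among the 16267 genes that the 3 deposited RNA matrices share. Levels are given for each authors' cluster, tissue and arm, except that the brain with metastases was clustered anew.

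Immediate early genes are switched on within minutes of a stimulus, without new protein synthesis, because the factors that drive them are already present and need only be phosphorylated. Their products are short-lived transcription factors such as Fos, Jun and Egr1, together with proteins that end the signal: phosphatases of the MAP kinases, RNA decay factors and inhibitors of NF-kappaB. Heat shock genes answer to misfolded protein through heat shock factor 1. Both responses are known to be set off when solid tissue is digested into single cells, and microglia, the resident macrophages of the brain, are known for it.

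The study asked how microglia shape the immune cells around brain metastases. Female C57Bl/6 mice aged 2 to 3 months carried Cx3cr1CreERT-ROSA-iDTR in the depleted arm and Cx3cr1CreERT in the control arm, and both arms received tamoxifen and, after a pause of 1 month, diphtheria toxin. Cx3cr1CreERT is a tamoxifen-switched recombinase under the promoter of Cx3cr1, which microglia and monocytes use, and ROSA-iDTR is a toxin receptor that this recombinase turns on, so Cx3cr1 RNA does not itself show which mice carried the receptor. Metastases grew from E0771 mammary carcinoma cells, given through the carotid artery about 2 weeks before collection, and naive mice received no tumour. The submitters state that remnant microglia stay in depleted samples. Each sample was 1 brain hemisphere or the blood, and 8 hashed samples were loaded as 1 pool for CITE-seq, which reads RNA and antibody tags from the same droplet. Brains of perfused mice were digested with enzymes and enriched on Percoll. Blood was drawn into heparin and its red cells were lysed, with no digestion named. The groups used here were therefore the brain with metastases (1 pooled matrix with no arms in the files used), the naive brain of the depleted and of the control arm, and the blood of mice with metastases of the depleted and of the control arm.

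The brain with metastases held 5933 cells, with a median of 13647 corrected UMIs (molecules counted per cell after the authors' depth correction). In the naive brain, 1868 cells were labelled depleted and 785 labelled control, with medians of 10120 and 8621 raw UMIs and sums of 39400503 and 15811707. In the blood, 1553 cells were labelled depleted and 1371 labelled control, with medians of 5885 and 4571 raw UMIs and sums of 29587041 and 27311805. Cx3cr1 RNA was higher in the sample labelled depleted in both tissues. It was at 10.0 counts per 10000 UMIs (CP10k) in naive brain microglia of the sample labelled depleted and at 1.72 in those of the sample labelled control, and at 3.64 and 0.286 CP10k in nonclassical monocytes of the blood. In the microglia-like cells of the blood it was at 5.86 and 5.03 CP10k. Whether the labels are right was not tested, so "the sample labelled depleted" and "the sample labelled control" are written throughout. Cell classes are named from marker lists and stand for cells like the named type.

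The matrices also share droplets. Of the cell barcodes, 339 stood in both the naive brain and the blood, with equal raw totals in all 339, 518 in both brains, 578 in the brain with metastases and the blood, and 84 in all 3 matrices. Shared barcodes made up 17.1% of the brain with metastases, 29.1% of the naive brain and 28.5% of the blood, and in the blood 82.7% of the cells with microglial markers. Counts and medians over the members are therefore given with and without them where at least 30 cells remained on each side. Levels of single genes, shares, correlations and further lists are with all droplets, and the text says where the ratio of a named member turns without shared ones. With 1 hashed sample on each side there is no replicate check: no p-value is given, intervals are exact 95% intervals that cover counting error only, and counts of genes are descriptions. A gene counts as measured at 0.5 CP10k or more on at least 1 side, and log2 ratios carry a pseudocount of 0.1 CP10k. A member that was measured only through the side where it was high had to differ, so counts over all 38 members are given beside those over the measured ones for the main comparisons.

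The stretches upstream of 6 members are shown with the searched motifs that were found in them. RefSeq promoters on build GRCm38.p6 matched 32 of the 38 members, with 43 promoters in all, and 250 bases before each start site were searched on both strands. Egr1, Egr3, Ier2, Nfkbiz, Hspa8 and Hsp90aa1 had no entry and were not searched. Elements further upstream lay outside the search, so a motif not found here may still stand there. The cyclic AMP response element TGACGTCA, to which CREB binds, stood upstream of Dusp1, Btg2 and Maff (3 of 32 members, against 1.55% of all 32851 promoters and 1.77% of all genes). The 170 bases before the start are printed 5′ to 3′ with the matched motif in capitals. Those of Dusp1, the phosphatase that switches off MAP kinases, lie at chr17:26508473-26508642 (minus strand) and those of Btg2, an antiproliferative gene, at chr1:134079156-134079325 (minus strand).
Dusp1: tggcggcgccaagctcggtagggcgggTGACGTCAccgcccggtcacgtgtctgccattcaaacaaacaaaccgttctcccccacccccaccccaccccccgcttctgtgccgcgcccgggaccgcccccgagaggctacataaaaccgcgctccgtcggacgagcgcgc
Btg2: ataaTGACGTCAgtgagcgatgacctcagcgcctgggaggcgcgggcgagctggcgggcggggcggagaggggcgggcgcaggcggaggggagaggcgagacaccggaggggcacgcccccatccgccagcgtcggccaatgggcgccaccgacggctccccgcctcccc
The serum response element, the CArG box bound by serum response factor, stood upstream of Dusp5, Egr2 and Zfp36 (3 of 32 members, against 1.47% of all promoters). That of Zfp36, which encodes tristetraprolin, a protein that marks AU-rich messages for decay, is shown at chr7:28379229-28379398 (minus strand). Fos, at chr12:85473720-85473889 (plus strand), is shown with its TATAAA box. These letters stood upstream of 5 of 32 members, against 12.4% of all promoters and 14.3% of all genes. In Nr4a2, counted among the 5, they lay on the other strand, 164 to 159 bases before the start.
Zfp36: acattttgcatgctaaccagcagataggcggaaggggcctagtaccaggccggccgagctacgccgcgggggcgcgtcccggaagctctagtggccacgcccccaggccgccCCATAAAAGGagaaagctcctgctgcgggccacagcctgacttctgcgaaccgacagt
Fos: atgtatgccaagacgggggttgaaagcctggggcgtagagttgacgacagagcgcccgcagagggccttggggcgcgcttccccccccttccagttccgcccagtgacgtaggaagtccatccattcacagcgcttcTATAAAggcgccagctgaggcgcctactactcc
Heat shock elements are built from inverted GAA units. The pair GAANNTTC stood upstream of Hspa1a, Hspa1b, Fosl2 and Jun (4 of 32 members, against 6.69% of all promoters and 7.73% of all genes). The pair TTCNNGAA stood upstream of Egr2 and Hsph1 (2 of 32, against 7.17% of promoters and 8.1% of genes). Hspa1a at chr17:34972157-34972326 (minus strand) and Hspa1b at chr17:34959239-34959408 (minus strand) are the neighbouring copies of the inducible HSP70 gene. Their printed stretches were identical at 169 of 170 bases, and since the RNA of such copies can be split between them by alignment, the level of each is uncertain.
Hspa1a: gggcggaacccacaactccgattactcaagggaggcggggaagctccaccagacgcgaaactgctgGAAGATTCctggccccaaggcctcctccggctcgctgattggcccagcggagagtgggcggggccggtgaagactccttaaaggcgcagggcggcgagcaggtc
Hspa1b: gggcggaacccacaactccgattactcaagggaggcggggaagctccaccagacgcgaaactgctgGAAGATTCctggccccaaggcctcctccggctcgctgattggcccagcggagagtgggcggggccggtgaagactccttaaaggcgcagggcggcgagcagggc
The AP-1 site TGANTCA, where Fos and Jun dimers bind, was found upstream of Csrnp1 and Zfp36l1 (2 of 32 members, against 6.75% of all promoters and 7.82% of all genes). A match is a run of letters, not a measured site.

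Microglia carried more immediate early RNA than any other class in each matrix. The 32 immediate early members held 4.50% of all UMIs in microglia of the brain with metastases, 4.24% and 5.21% in naive brain microglia of the samples labelled depleted and control, and 3.40% and 3.34% in the microglia-like cells of the blood. In the other named classes with at least 30 cells the share lay between 0.33% and 3.19%. The next highest class was the neutrophils of the brain with metastases at 3.19%. Naive brain monocytes held 2.40% and 2.50% in the samples labelled depleted and control. Endothelial cells of the brain with metastases held 2.46%, and those of the naive sample labelled control 2.48%. An unnamed cluster of 99 cells in the brain with metastases, with microglial markers at 202 CP10k and 70.7% shared barcodes, held 3.87%. Another unnamed cluster there, of 102 cells with 7 of 8 neutrophil markers, held 0.84% and is not counted among the neutrophils.
Blood leukocytes lay at the low end. Classical monocytes of the blood held 0.41% and 0.35% in the samples labelled depleted and control, nonclassical monocytes 0.69% and 0.79%, B cells 0.51% and 0.61%, and T cells 0.92% and 0.93%. Blood neutrophils were higher than these, at 1.43% and 1.24%. The Krt8+ cells, which carry the keratin gene Krt8 of epithelial tumour lines, had the lowest share of all in the brain with metastases, at 0.33%, and 0.41% and 0.39% in the blood, slightly above the classical monocytes of the same samples.

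**Figure D1:**
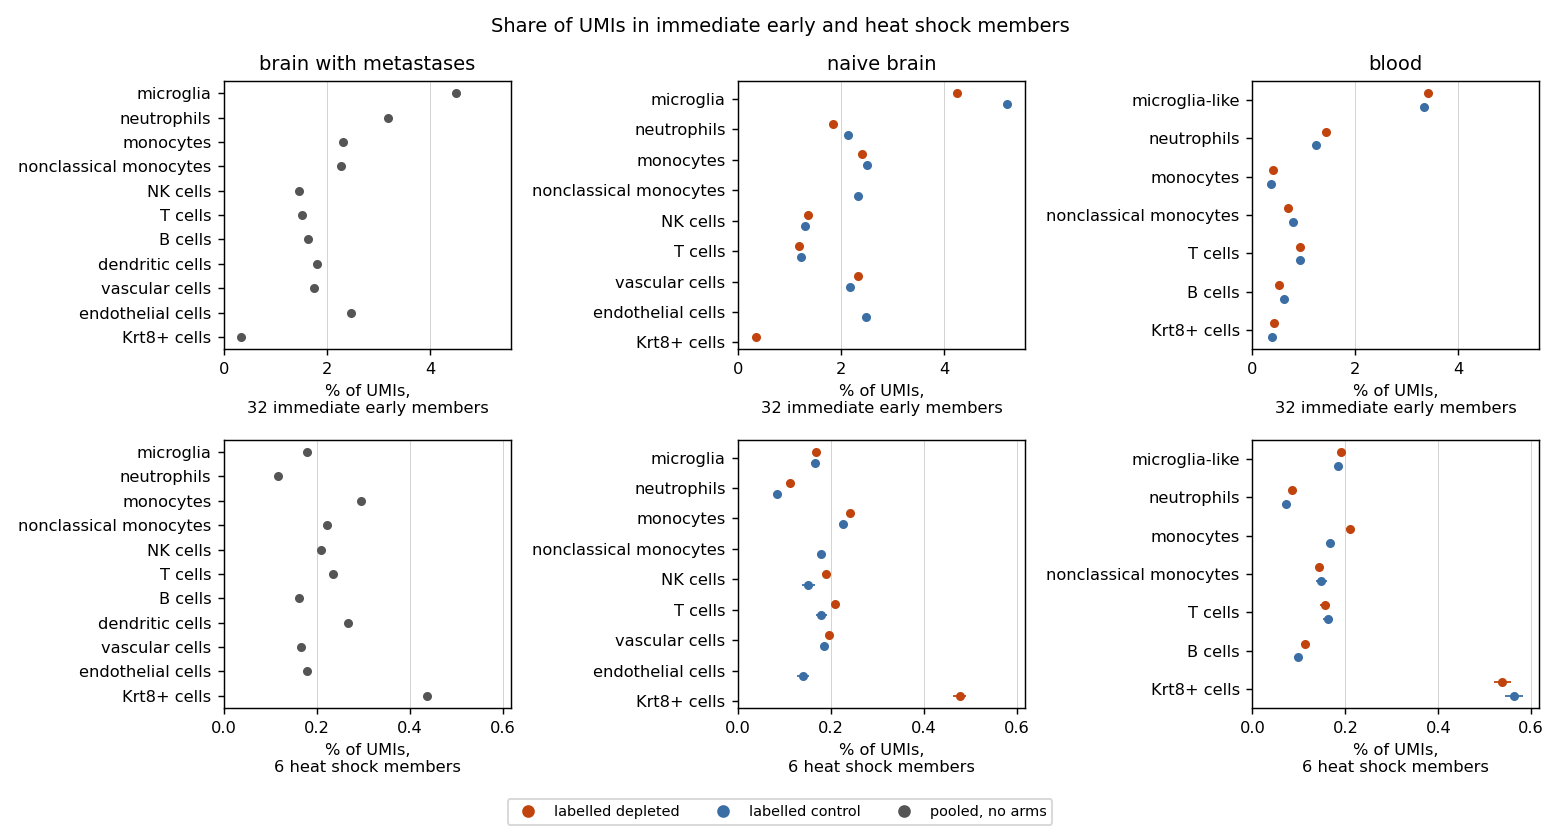
Share of UMIs (x axis, percent) in the 32 immediate early members (top) and the 6 heat shock members (bottom) by cell class, matrix and arm; points are pooled sums and bars exact 95% intervals of counting error, mostly narrower than the points. Microglia sit between 3.34% and 5.21% in the top panels, and the Krt8+ cells are at the low end of the top panels and the high end of the bottom ones.

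The heat shock members were ordered otherwise. They held 0.44% of UMIs in Krt8+ cells of the brain with metastases and 0.54% and 0.56% in those of the 2 blood samples. Naive brain microglia held 0.17% and 0.16% in the samples labelled depleted and control. Krt8+ cells of the naive brain, from mice given no tumour, held 0.48% (111 cells, 72.1% shared barcodes). In the blood samples labelled depleted and control, 91.4% and 75.9% of Krt8+ cells had shared barcodes. Their median hashtag totals were 20 and 19, so their tissue and arm are uncertain. Among leukocytes the share lay between 0.072% in blood neutrophils labelled control and 0.294% in monocytes of the brain with metastases. Hspa8, the constitutive HSC70, was highest in blood Krt8+ cells at 33.0 and 34.3 CP10k, and Hsp90aa1, the inducible HSP90, was at 18.0 and 18.5 CP10k in the same cells. Hsph1, an HSP110 that exchanges nucleotides on HSP70, was also highest there, at 2.33 CP10k in the sample labelled control. The stress-inducible copies Hspa1a and Hspa1b stayed low, with highest levels of 1.11 CP10k in naive brain microglia labelled control and 0.359 CP10k in blood Krt8+ cells labelled control.
Over the 40 groups of cells (classes by matrix and arm), the summed immediate early and heat shock levels had a Pearson correlation of -0.30, and 0.16 over the 36 groups without Krt8+ cells. The groups share a pool and a correction, so these values are descriptions.

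Single members differed in where they peaked. Among the AP-1 genes, Fos reached 53.0 CP10k, Jun 70.3 and Atf3 21.9, all in naive brain microglia labelled control. Junb reached 52.0 CP10k in neutrophils of the brain with metastases instead, with 45.8 in microglia of the same brains. Egr1, the zinc finger factor of the early growth response, peaked at 28.4 CP10k in naive brain microglia labelled control.
Other members peaked outside the microglia. Dusp2, a phosphatase of lymphocytes, was highest in naive brain NK cells at 7.88 and 8.54 CP10k in the samples labelled depleted and control, and Nr4a2, an orphan nuclear receptor, was highest in those labelled control, at 1.74 CP10k, followed by NK cells of the brain with metastases. Klf4, a factor of endothelium and monocytes, was highest in naive brain endothelial cells (8.16 CP10k, labelled control) and nonclassical monocytes (7.95 CP10k, labelled control). Ier3 reached 12.7 CP10k in endothelial cells of the brain with metastases. Btg1, which holds cells in quiescence, peaked at 24.1 CP10k in neutrophils of the brain with metastases and was at 20.9 CP10k in blood neutrophils labelled depleted.
Across the 36 groups without Krt8+ cells, most immediate early members followed the sum of the others on the log2 scale. Ier2 followed it most closely (Pearson r = 0.96), then Dusp1 (0.93), Btg2 (0.92), Egr1 (0.92) and Fos (0.90). Btg1 (0.05), Dusp5 (0.14), Nr4a2 (0.21), Fosl2 (0.25) and Dusp2 (0.26) did not. Of the chaperones, Dnajb1 (0.60), Hspa1a (0.56) and Hsp90aa1 (0.49) followed it in part. Hspa1b (0.23), Hspa8 (0.08) and Hsph1 (-0.19) did not. These are descriptions over groups that share libraries.

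**Figure D2:**
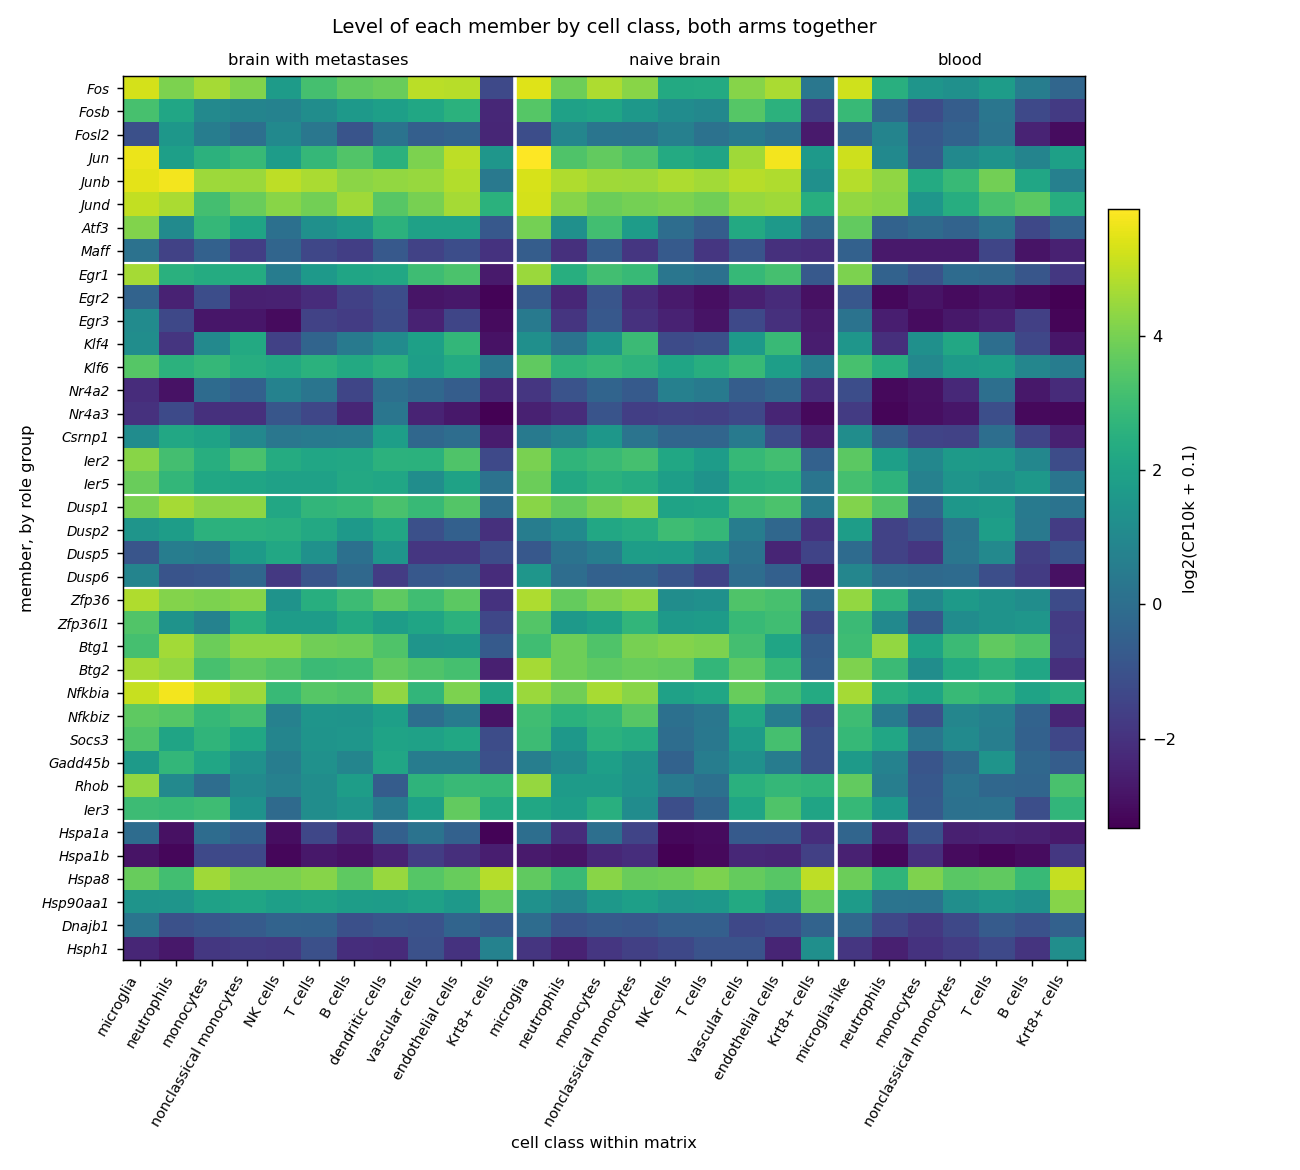
Level of each of the 38 members (rows, by role group) in each cell class (columns, by matrix, both arms together), as log2(CP10k + 0.1). Junb, Jund and Hspa8 had the highest medians over the 40 groups by matrix and arm (23.1, 15.3 and 13.3 CP10k), while Fos and Jun are brightest in microglia. Junb is highest in neutrophils of the brain with metastases (52.0 CP10k), and Hspa8 and Hsp90aa1 are brightest in the Krt8+ columns.

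Within a class, cells spread widely. With every cell thinned to 2000 UMIs, which left out no cell of any class, naive brain microglia held a median of 4.20% immediate early UMIs per cell, with 1.35% at the 10th percentile and 7.70% at the 90th, and the unthinned median was 4.17%. Naive brain monocytes had a median of 2.30% (0.81% to 4.10%, the same percentiles) and an unthinned median of 2.34%. Classical monocytes of the blood had 0.30% (0.15% to 0.60%) and 0.31% unthinned. The 10th percentile of the brain cells thus lay above the 90th of the blood cells for this class. For neutrophils the ranges overlapped, with 1.55% (0.75% to 3.86%) in the naive brain and 1.30% (0.75% to 1.90%) in the blood.

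Cells of the naive brain were next set against cells of the blood whose cluster got the same class name. Brain was digested and blood was not, but the 2 also differ in tissue, in host (naive mice against mice with metastases) and in the matrix in which UMIs were corrected, and these cannot be told apart. Clusters of the same name also differed in their leading genes. The naive brain monocytes, named from markers of monocytes and macrophages, were led by Cxcl9, Fabp5 and Ms4a4c, and the blood ones by F13a1, Fn1 and Chil3. Naive brain neutrophils were led by Ngp, Camp and Ltf, and blood ones by S100a9, S100a8 and Retnlg. The part of cell state in the ratios was not tested.
Monocytes differed most. Of 33 measured members 32 were higher in the naive brain, against 40.3% of all measured genes, and 30 were at least 2-fold higher, against 11.2% of all measured genes. Over all 38 members without a filter 36 were higher, against 37.8% of genes. Their median log2 ratio was 2.42, and that of all measured genes -0.14. Shared droplets held 62.2% of the naive brain monocytes, and without them the members' median was 2.72, and within the samples labelled depleted and control it was 2.45 and 2.56. Median hashtag totals of the naive brain monocytes were 1132 labelled depleted and 63 labelled control, so the arm of the latter is uncertain. Median raw UMIs were 24399 in the naive brain monocytes and 11686 in the blood ones. The part of this depth in the result was not tested.
The 8 AP-1 genes had a median log2 ratio of 2.76, and 3 of the 4 phosphatases were at least 2-fold higher. Jun, at 13.8 and 11.2 CP10k in the naive brain samples labelled depleted and control, was at 0.719 and 0.276 CP10k in the blood samples with the same labels (log2 ratio of the pooled cells 4.38). Dusp1 was at 15.3 and 19.5 CP10k in the naive brain, against 0.762 and 0.689 CP10k in the blood (4.36). Each brain sample lay far above each blood sample for both genes.
Egr1 was at 8.82 and 7.94 CP10k in the naive brain of the 2 labels, against 0.394 and 0.445 CP10k in the blood (log2 ratio 4.05). Fos was at 26.2 and 28.1 CP10k, against 2.76 and 2.54 CP10k (3.29). All 8 AP-1 genes, all 4 RNA decay and antiproliferative genes and all 6 signalling feedback genes were at least 2-fold higher. The last group includes Nfkbia, the inhibitor that holds NF-kappaB in the cytoplasm, at 23.3 and 28.9 CP10k, against 5.07 and 2.90 CP10k, and Nfkbiz, its nuclear relative, with a log2 ratio of 3.80.
A few members did not differ by 2-fold. Klf4, which drives monocyte differentiation, was at 2.50 and 2.82 CP10k in the naive brain samples labelled depleted and control, against 2.73 and 1.88 CP10k in the blood, so that the samples overlapped (log2 ratio 0.16). Dusp6, a phosphatase of ERK, had a log2 ratio of -0.30. Hspa8 was at 19.4 and 18.0 CP10k, against 18.6 and 15.3 CP10k (0.14), while the other measured chaperones Hsp90aa1, Dnajb1 and Hspa1a had log2 ratios of 1.42, 1.05 and 1.04.

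Of all measured genes in the monocytes, 40.3% were higher in the naive brain and 11.2% at least 2-fold higher. These shares stand beside each list below. Of the other genes of these pathways, 11 of 22 further immediate early genes were measured in the monocytes, 8 of them higher and 5 at least 2-fold higher. Ppp1r15a (GADD34, which restarts translation after stress) was at 3.99 CP10k in the naive brain and 0.302 CP10k in the blood (log2 ratio 3.35), and Trib1 had a log2 ratio of 2.95, while Cebpd and Klf10 had -1.04 and -0.50. Of 6 NF-kappaB feedback genes, all measured, 4 were higher. Tnfaip3, the deubiquitinase A20, led them at 3.93 CP10k in the naive brain and 0.264 CP10k in the blood (3.47). Of 15 further cytosolic and mitochondrial chaperones 10 were measured and 8 were higher, none by 2-fold, with Hspd1 highest at 0.65. Of 10 genes of endoplasmic reticulum stress 7 were measured and 6 were higher, led by Hspa5 (BiP) at 1.14. Of 10 upstream regulators 4 were measured, and 1, Elk3, was higher, with a log2 ratio of 0.11.
The naive brain monocytes also carried microglial RNA. Of 10 microglial markers 9 were at 0.5 CP10k or more in them and 3 in the blood monocytes, and the summed level was 45.4 CP10k and 4.67 CP10k, with P2ry12 at 1.28 and 0.11 CP10k. In naive brain microglia the sum was 227 CP10k. Classical monocyte markers were at 58.0 CP10k in the naive brain monocytes and 169 CP10k in the blood ones, and neutrophil markers at 40.6 and 11.5 CP10k. The part of these in the result was not tested. In nonclassical monocytes the sum was lower, at 10.5 CP10k in the naive brain and 6.86 CP10k in the blood.

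Nonclassical monocytes, the patrolling monocytes of vessels, had 29 of 30 measured members higher in the naive brain, against 50.8% of all measured genes, and 23 at least 2-fold higher, against 2.97%. Members had a median log2 ratio of 1.54 and all measured genes 0.01. Without shared droplets the members' median was 1.72, and in the samples labelled control alone it was 1.37 (the naive sample labelled depleted held 18 such cells).
Fos was at 18.7 CP10k in the naive brain, against 2.36 CP10k in the blood (log2 ratio 2.93). Egr1 was at 7.17 CP10k, against 0.824 CP10k (2.98), and Dusp1 at 20.3 CP10k, against 2.83 CP10k (2.80). Zfp36 was at 19.9 CP10k, against 3.14 CP10k (2.63). The 2 chaperones measured, Hspa8 and Hsp90aa1, had log2 ratios of 0.25 and 0.64.

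Neutrophils had 25 of 29 measured members higher in the naive brain, against 49.4% of all measured genes, and 12 at least 2-fold higher, against 11.3%. Over all 38 members 34 were higher, against 61.5% of genes. Members had a median log2 ratio of 0.84 and all measured genes -0.01. The members' median was 0.82 without shared droplets, and 0.64 and 1.00 within the samples labelled depleted and control.
Egr1 was at 4.24 and 6.57 CP10k in the naive brain samples labelled depleted and control, against 0.783 and 0.539 CP10k in the blood samples (log2 ratio 2.86). Jun was at 11.7 and 8.27 CP10k, against 2.03 and 1.94 CP10k (2.30), and Dusp2 at 2.13 and 1.85 CP10k, against 0.296 and 0.218 CP10k (2.58). None of these brain values overlapped the blood values.
Other members went the other way or did not move. Btg1 was at 14.1 and 14.4 CP10k in the naive brain, against 20.9 and 20.8 CP10k in the blood (-0.55), and Socs3, an inhibitor of cytokine signalling, had a log2 ratio of -0.56. Junb was at 22.9 and 32.1 CP10k in the naive brain, against 22.9 and 18.5 CP10k in the blood (0.41), so its level differed little between brain and blood in the samples labelled depleted. Microglial markers summed to 17.6 CP10k in the naive brain neutrophils, with 8 of 10 at 0.5 CP10k or more, and to 3.21 CP10k in the blood ones, with 3 of 10. Their part in the result was not tested.

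T cells differed with the droplets counted. With all droplets 20 of 30 measured members were higher in the naive brain, against 46.1% of all measured genes, and 22 of all 38, against 33.2% of genes. Members had a median log2 ratio of 0.16 and all measured genes -0.03. Without shared droplets, 28 of 29 measured members were higher, against 51.8% of all measured genes, and the members' median was 0.84, with 0.03 for all genes. In that setting it was 0.99 and 1.09 within the samples labelled depleted and control.
The 2 sides also differ in markers of other cells. The blood T cell cluster, with 7 of 8 T cell markers, carried 7 of 8 NK markers too, and NK markers were at 7.41 CP10k in naive brain T cells and 26.4 CP10k in blood ones. Neutrophil markers were at 4.95 and 116 CP10k. Their part in the result was not tested.
Junb, with all droplets, was at 23.4 and 28.6 CP10k in the naive brain samples labelled depleted and control, against 14.4 and 15.7 CP10k in the blood samples (log2 ratio 0.67, and 2.26 without shared droplets). Dusp2 was at 7.32 and 4.20 CP10k, against 3.42 and 3.57 CP10k (0.97, and 2.14). Other members turned with the droplets counted. Klf4, Gadd45b, Atf3 and Nfkbia had log2 ratios of -1.08, -0.90, -0.84 and -0.57 with all droplets, and of 0.46, 1.55, 0.84 and 0.29 without shared ones, where Klf4 was under 0.5 CP10k on both sides.
Of the 206 blood T cells, 49.0% stood in droplets that another matrix also lists. The 105 blood T cells in no other matrix held 0.479% immediate early UMIs (interval 0.461% to 0.498%), with Junb at 4.93 CP10k and Fos at 1.33 CP10k. The 49 shared with the naive brain held 1.23%, with Junb at 23.1 CP10k, and the 58 shared with the brain with metastases 1.49%, with Junb at 26.1 CP10k. The shared blood droplets thus had levels near those of brain T cells, where Junb was at 24.1 CP10k in the naive brain.

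**Figure D3:**
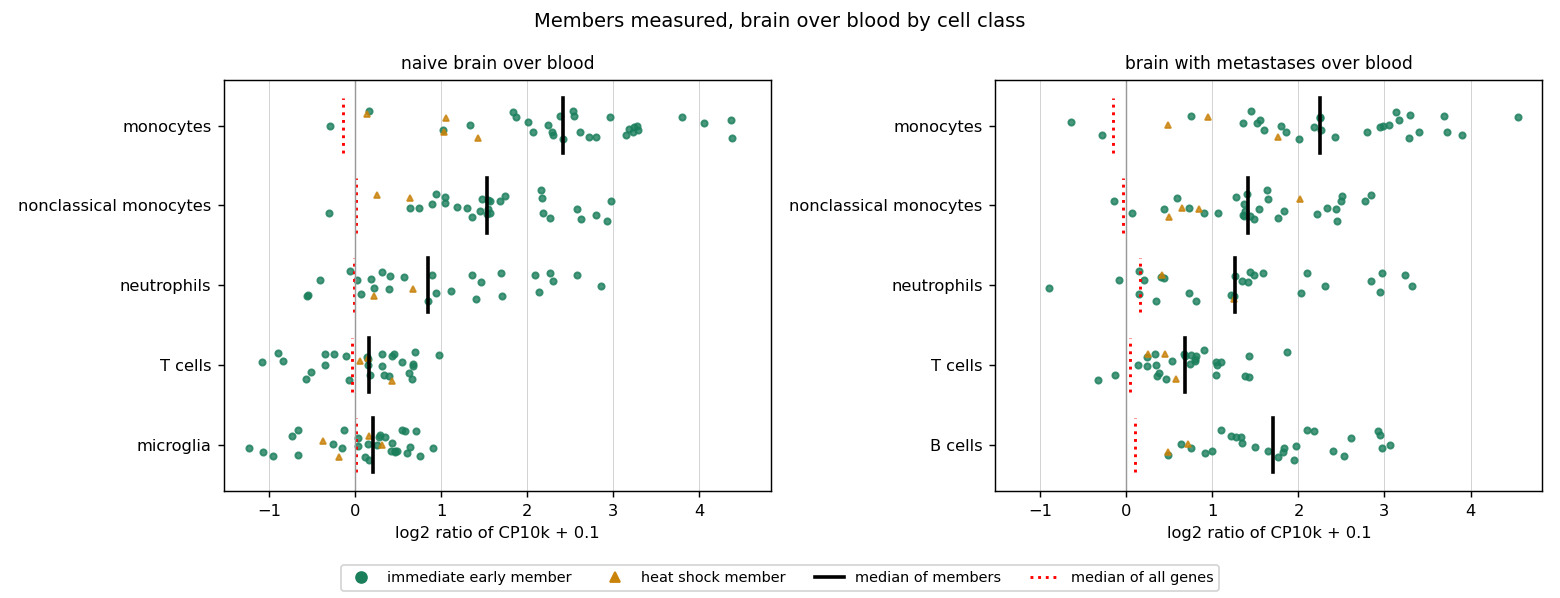
Log2 ratio (x axis, CP10k + 0.1) of each measured member in the naive brain over the blood (left) and in the brain with metastases over the blood (right), by cell class, with all droplets counted. Black lines are the members' medians and dotted red lines the medians of all measured genes; for monocytes the members' medians are 2.42 and 2.25.

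Microglia of the naive brain were set against the microglia-like cells of the blood, of which 82.7% stood in shared droplets. Of 34 measured members 23 were higher in the naive brain, against 50.7% of all measured genes. The members' median log2 ratio was 0.21, and 0.40 without shared droplets, where 81 of 468 blood cells remained. Microglial markers summed to 227 CP10k in the naive brain cells and 153 CP10k in the blood ones, and neutrophil markers to 54.7 and 171 CP10k. Those 81 cells held 2.80% immediate early UMIs. The 192 shared with the naive brain held 4.04% and the 248 shared with the brain with metastases 3.09%.
The share differed between shared and unshared droplets in other classes too. Neutrophils of the brain with metastases held 4.11% in 78 cells listed only there and 1.70% in 51 cells shared with the blood. Nonclassical monocytes of the blood held 1.24% in 36 cells shared with the brain with metastases and 0.610% in 423 cells listed only there. T cells of the brain with metastases held 2.42% in 104 cells shared with the naive brain and 1.36% in 604 cells listed only there.

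**Figure D4:**
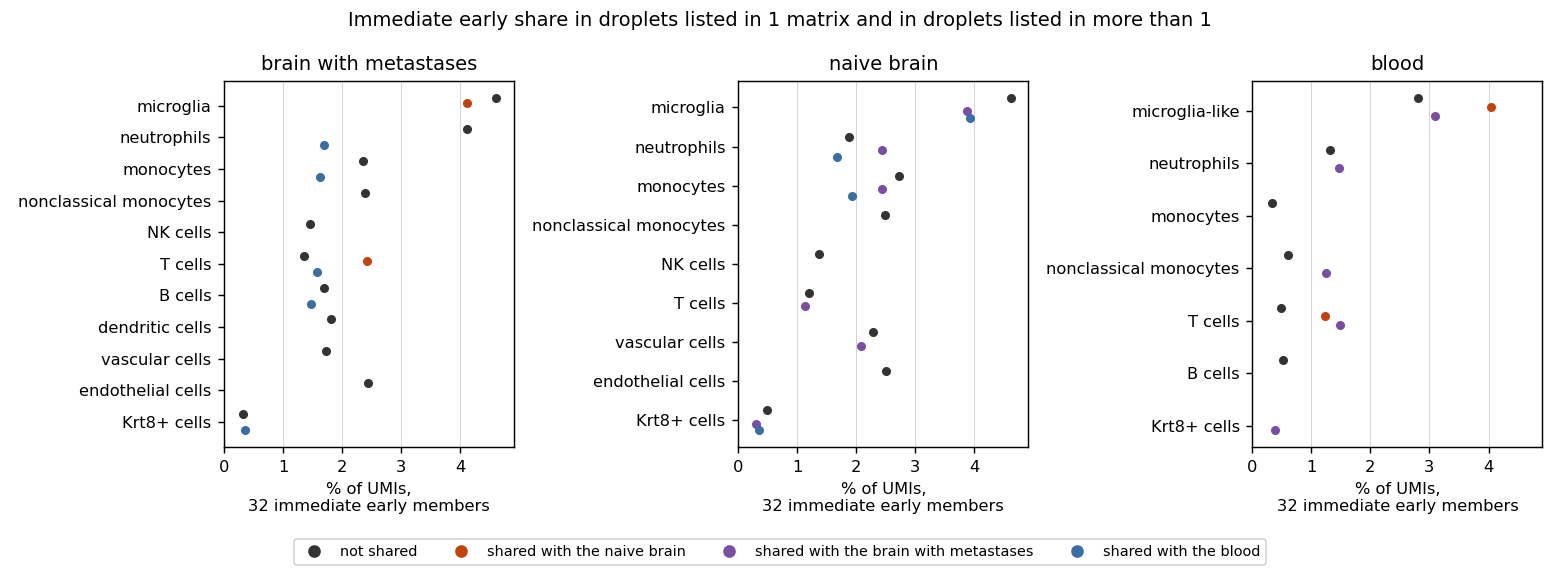
Share of UMIs (x axis, percent) in the 32 immediate early members for cells listed in 1 matrix only and for cells whose barcode stands in another matrix as well, by class, for groups of at least 30 cells; bars are exact 95% intervals of counting error. Blood T cells listed only in the blood sit at 0.479%, and those shared with a brain matrix at 1.23% and 1.49%.

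The brain with metastases repeated the distance from the blood in monocytes, nonclassical monocytes and neutrophils. These comparisons use the same blood cells as those of the naive brain, so the 2 sets of ratios are not independent.
In monocytes 30 of 32 measured members were higher, against 42% of all measured genes, and 27 at least 2-fold higher, against 12.6%, with a median of 2.25 (2.50 without shared droplets). Fos was at 24.7 CP10k in the brain with metastases, against 2.76 and 2.54 CP10k in the blood samples labelled depleted and control. Microglial markers summed to 20.9 CP10k in these brain monocytes and 4.67 CP10k in the blood ones, 3 of 10 at 0.5 CP10k or more in each, and their part in the result was not tested. In nonclassical monocytes 31 of 32 were higher, against 47.3% of genes, and 23 at least 2-fold higher, against 3.17%, with a median of 1.42 (1.65 without shared droplets).
In neutrophils 26 of 28 were higher, against 56.2% of genes, and 17 at least 2-fold higher, against 21.5%, with a median of 1.26 (1.64 without shared droplets). Nfkbia was at 53.0 CP10k in neutrophils of the brain with metastases, against 7.23 and 4.16 CP10k in those of the blood samples (log2 ratio of the pooled cells 3.24). Junb was at 52.0 CP10k, against 22.9 and 18.5 CP10k (1.34), Csrnp1 had a log2 ratio of 2.84 and Dusp2 3.32. In these cells 10 of 15 further chaperones were measured. All 10 were higher, against 56.2% of all measured genes, and 8 at least 2-fold, against 21.5%, led by Stip1 (1.49) and Cacybp (1.46). Microglial markers summed to 7.05 CP10k in them and 3.21 CP10k in blood neutrophils, and Sall1 was at 0 in the brain cells.
B cells could be compared only here, and all 28 measured members were higher in the brain with metastases, against 56% of genes, 21 of them at least 2-fold, against 11.3%. The median log2 ratio was 1.70 for the members, 1.66 without shared droplets, and 0.10 for all measured genes. Fos was at 12.3 CP10k, against 0.778 and 1.82 CP10k in the blood samples labelled depleted and control, and Junb at 19.6 CP10k, against 3.91 and 4.48 CP10k. The B cells of the brain with metastases also carried microglial markers at a sum of 50.2 CP10k, 9 of 10 at 0.5 CP10k or more, against 4.08 CP10k in blood B cells, and 57.1% of them stood in shared droplets. The part of this RNA was not tested.

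In T cells the size of the difference moved with 1 cluster and with the shared droplets. With all droplets 28 of 30 measured members were higher in the brain with metastases than in the blood, against 53.5% of all measured genes, and 35 of all 38, against 41.7% of genes, with a median of 0.68. Cluster 7, with 184 of the 747 T cells, held 2.50% immediate early UMIs and microglial markers at 67.9 CP10k, and 54.9% of its cells stood in shared droplets. The other T cell clusters held 1.03% and 1.40% and 3.57 and 5.63 CP10k. Without cluster 7, a setting chosen after the data were seen, 24 of 30 were higher, against 51.7% of all measured genes, and the median was 0.21. Without shared droplets 29 of 29 were higher, against 55.8% of genes, with a median of 1.38.
T cells of the brain with metastases were also set against those of the naive brain. With all clusters 27 of 30 measured members were higher, against 56.6% of genes, with a median of 0.46 (0.35 without shared droplets). Without cluster 7, 17 of 29 were higher, against 58.3% of genes, and the median was 0.09.

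Comparisons between the 2 brains also set mice with metastases against naive mice and 1 correction against another. In microglia 19 of 32 measured members were higher in the brain with metastases, against 54% of all measured genes, and 21 of all 38, against 33.8% of genes. The median log2 ratio was 0.11 for the members, 0.09 without shared droplets, and 0.02 for all measured genes. Neutrophil markers were at 5.98 CP10k in microglia of the brain with metastases and 54.7 CP10k in naive ones, and their part in the result was not tested.
Of the 6 signalling feedback genes 5 were higher and Rhob, a small GTPase, had a log2 ratio of -0.05. Nfkbia was at 34.6 CP10k in the brain with metastases, against 22.1 and 24.6 CP10k in the naive samples labelled depleted and control, and Gadd45b at 3.15 CP10k, against 1.33 and 2.03 CP10k. Fos was at 39.5 CP10k, against 41.8 and 53.0 CP10k, and Dusp6 at 1.66 CP10k, against 2.76 and 2.62 CP10k. The pooled brain with metastases thus lay above both naive samples for Nfkbia and Gadd45b and below both for Fos and Dusp6. The 2 microglial clusters of the brain with metastases held 4.79% and 3.61% immediate early UMIs, and 9.20% and 47.2% of their cells stood in shared droplets.
NK cells had 25 of 30 measured members higher, against 51.8% of genes, with a median of 0.20 (0.19 without shared droplets). Monocytes had 14 of 33 higher, against 56.1%, with a median of -0.04 (-0.17), and nonclassical monocytes 13 of 32, against 46.3%, with a median of -0.07 (-0.10). Neutrophils had 22 of 29 higher, against 62.1%, with a median of 0.47 (0.84), where all measured genes had 0.20 (0.35). Microglial markers were at 7.05 CP10k in neutrophils of the brain with metastases and 17.6 CP10k in naive ones. The neutrophil cluster of the brain with metastases was led by G0s2, Stfa2l1 and Retnlg, and the naive one by Ngp, Camp and Ltf. The unnamed cluster of 102 cells in the brain with metastases, led by Camp, Ngp and Ltf, held 0.84% immediate early UMIs and was left out. The part of this difference in the result was not tested. Single members went in opposite directions. Nfkbia was at 53.0 CP10k in neutrophils of the brain with metastases, against 11.0 and 19.3 CP10k in the naive samples labelled depleted and control (log2 ratio 1.83), and Gadd45b at 6.78 CP10k, against 1.75 and 2.52 CP10k (1.64). Jun was at 3.55 CP10k, against 11.7 and 8.27 CP10k (-1.48), and Klf4 had a log2 ratio of -2.10.

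The 2 arms of the naive brain were then compared, each a single hashed sample. In microglia 28 of 33 measured members were lower in the sample labelled depleted than in the one labelled control, against 60.3% of all measured genes. Over all 38 members 30 were lower, against 50.3% of genes. On the log2 scale the median ratio was -0.31 for the members and -0.05 for all measured genes, and without shared droplets the members' median was -0.34, with the same count.
The inducible factors Klf4, Egr2 and Csrnp1, and the signalling feedback gene Ier3, lay below the members' median. Klf4 was at 1.81 CP10k in microglia of the sample labelled depleted and at 4.85 CP10k in those of the sample labelled control (log2 ratio -1.38, with a counting interval of -1.56 to -1.28 for the ratio without the pseudocount). Egr2, a factor of myelin and macrophages, was at 0.406 and 1.14 CP10k (-1.29), so it counted as measured only through the sample labelled control. Csrnp1 had a log2 ratio of -0.91, and Ier3 was at 3.93 and 6.91 CP10k (-0.80). No member was at least 2-fold higher.
The abundant AP-1 genes differed less. Fos was at 41.8 CP10k labelled depleted and 53.0 CP10k labelled control (-0.34), Jun at 56.7 and 70.3 CP10k (-0.31) and Atf3 at 14.0 and 21.9 CP10k (-0.64). All 7 measured AP-1 genes, all 8 measured factors of the second group and all 6 signalling feedback genes were lower. Ier2, counted among the lower ones, was at 16.2 CP10k in both samples, and Zfp36l1 and Hspa8 were higher, with log2 ratios of 0.17 and 0.18. Of 11 measured further immediate early genes 9 were lower, against 60.3% of all measured genes, Nr4a1 the most, at 1.57 and 2.96 CP10k (-0.88).
Per cell, at 2000 UMIs, the median immediate early share was 4.10% labelled depleted and 5.20% labelled control, and the 10th percentiles were 1.35% and 1.40%. The samples held 686 and 134 microglia, with median depths of 14065 and 14625 raw UMIs. Markers of other cells differed as well: erythroid markers were at 31.8 CP10k labelled depleted and 0.407 CP10k labelled control, and neutrophil markers at 52.2 and 67.9 CP10k. Their part in the result was not tested.

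**Figure D5:**
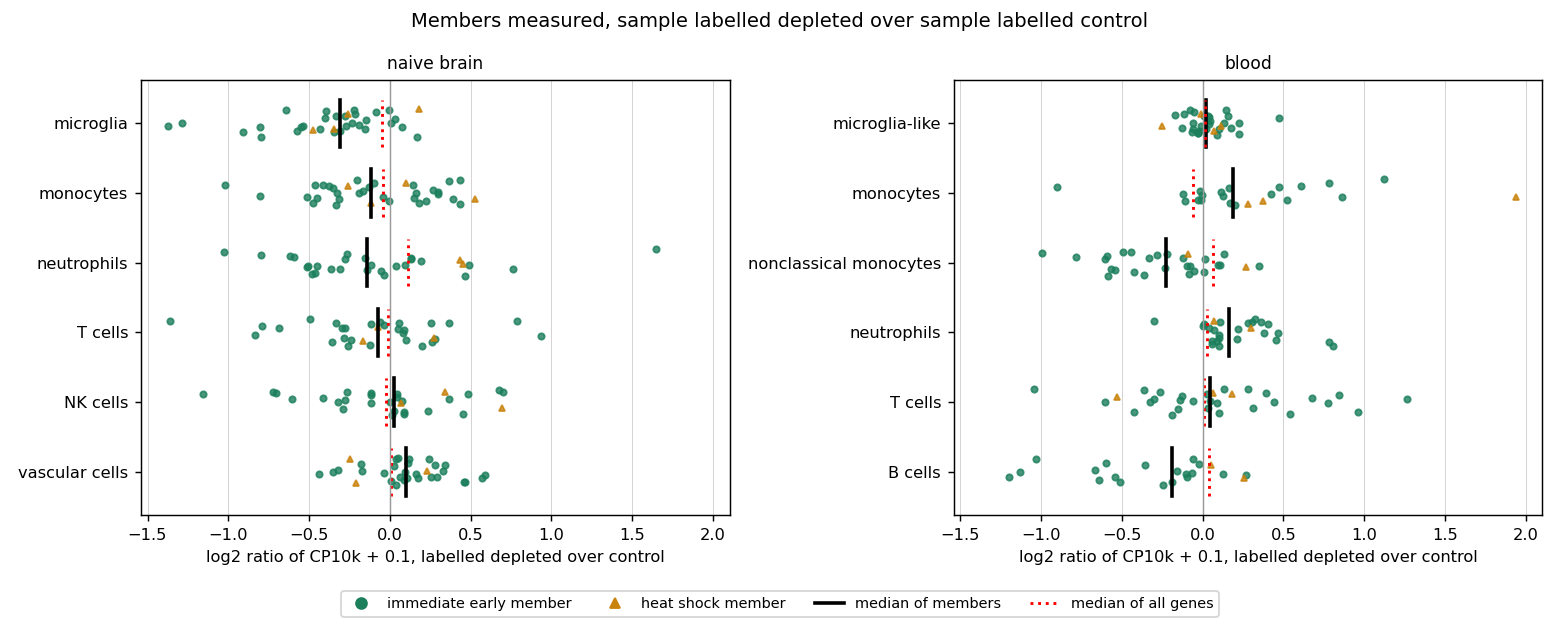
Log2 ratio (x axis, CP10k + 0.1) of each measured member in the sample labelled depleted over the sample labelled control, by class, in the naive brain (left) and the blood (right); there is 1 hashed sample on each side. The members' median (black line) is -0.31 in naive brain microglia and 0.16 in blood neutrophils, and the medians of all measured genes (dotted) lie between -0.06 and 0.11.

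The other classes of the naive brain differed less. T cells had 18 of 31 measured members lower in the sample labelled depleted, against 51.8% of genes, and 22 of all 38, against 45%, with a median of -0.07 (-0.16 without shared droplets). Monocytes had 21 of 35 lower, against 57.4%, and 22 of all 38, against 43.2%, with a median of -0.12 (-0.31). Among them Nr4a3, an orphan nuclear receptor, was at 0.273 CP10k labelled depleted and 0.657 CP10k labelled control (-1.02), and Ier3 at 4.17 and 7.35 CP10k (-0.80), while Hspa1a had 0.53 and Jund 0.44. Rhob had 0.44 with all droplets and -0.71 without shared ones. Neutrophil markers were at 24.1 CP10k in monocytes labelled depleted and 65.7 CP10k in those labelled control. With hashtag totals of at least 100, 168 and 45 monocytes remained in these samples, and the members' median was -0.10.
NK cells had 12 of 29 lower, against 51.9%, and 16 of all 38, against 46%, with a median of 0.03. They held 36 cells in the sample labelled control, 28 without shared droplets, too few to be compared again. Neutrophils had 18 of 29 lower, against 40%, with a median of -0.14, where all measured genes had 0.11, and their 36 unshared cells were too few for both samples. Vascular cells had 24 of 32 higher, against 50.6%, with a median of 0.10, which was 0.01 without shared droplets.

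In the blood, neutrophils of the sample labelled depleted had slightly higher levels. Of 26 measured members 25 were higher, against 55.7% of all measured genes, and of all 38 members 32, against 49.5% of genes. The median log2 ratio was 0.16 for the members, 0.17 without shared droplets, and 0.03 for all measured genes. Ier3 was at 4.06 CP10k in neutrophils of the sample labelled depleted and at 2.27 CP10k in those of the sample labelled control (0.81). Nfkbia was at 7.23 and 4.16 CP10k (0.78), Zfp36 at 7.83 and 5.68 CP10k (0.46) and Junb at 22.9 and 18.5 CP10k (0.30). Fos, at 5.61 and 5.39 CP10k, differed little, and Socs3 was the measured member that was lower, at 3.78 and 4.68 CP10k (-0.30).
Classical monocytes had 15 of 22 measured members higher, against 40.9% of genes, and 26 of all 38, against 48.3%, with a median of 0.18 (0.12 without shared droplets) and -0.06 for all measured genes. Hspa1a was at 0.649 CP10k in the sample labelled depleted and at 0.0954 CP10k in the one labelled control (1.94), Jun at 0.719 and 0.276 CP10k (1.12) and Nfkbia at 5.07 and 2.90 CP10k (0.78). Hspa1a and Jun counted as measured only through the sample labelled depleted. Over both samples Jun was at 0.518 CP10k with all droplets and at 0.297 CP10k in the 327 cells listed only in the blood. The part of shared droplets in its ratio was not tested. Socs3 was lower, at 0.780 and 1.55 CP10k (-0.90).

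Nonclassical monocytes of the blood gave no stable direction. With all droplets 7 of 28 measured members were higher in the sample labelled depleted, against 57.2% of genes, and 10 of all 38, against 57.5%, with a median of -0.23. Without shared droplets 14 of 28 were higher, against 55% of genes, with a median of 0.00. Without them 347 of 386 cells labelled depleted and 76 of 95 labelled control remained. Dusp1 was at 2.45 CP10k labelled depleted and 4.29 CP10k labelled control with all droplets (log2 ratio -0.78), and its ratio was -0.06 without shared ones. Neutrophil markers were at 35.2 CP10k labelled depleted and 107.5 CP10k labelled control, and erythroid markers at 0.436 and 69.7 CP10k. Their part in the result was not tested.
T cells of the blood turned as well. With all droplets 18 of 31 were higher, against 51.2% of genes, with a median of 0.05, and without shared droplets 8 of 24, against 53.6%, with a median of -0.35. B cells had 17 of 21 lower, against 44.7%, with a median of -0.19 (-0.14 without shared droplets, 12 of 20 lower), and Fos at 0.778 and 1.82 CP10k. The microglia-like cells had 19 of 33 higher, against 53.8%, with a median of 0.02 (0.12), and Fos at 36.9 and 36.4 CP10k.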

How the data were processed

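The series holds 3 libraries of 1 droplet pool (RNA, antibody tags and hashtags). Per the labels' protocols RNA was prepared with the 10x droplet assay, and per the submitters' processing notes reads were processed with Cell Ranger 3.1 and Seurat 3.1.1 on mm10. In the deposited matrices each value is a natural log, of a UMI count plus 1. Depth had been corrected beforehand, by the authors, in every matrix on its own: undone, every value was whole within a relative 1e-06. The deposited annotation gave each cell's count of raw UMIs and of hashtags, its cluster and its arm, and 60 of its columns were not used.

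A gene's level is its summed corrected UMIs in a class per 10000 UMIs of that class (CP10k). Authors' clusters, and clusters of the brain with metastases made here (scanpy 1.11.5, igraph 0.11.9, scikit-learn 1.9.0: 2000 variable genes, 30 principal components, 20 neighbours, Leiden resolution 1.0), were named from marker lists: at least 3 markers at 0.5 CP10k and 2-fold over the other cells, with at least 1 of them among the 10 leading genes or 6 found, and no other type leading more. The naive microglial cluster was also led by Igkc, Ighm and Jchain. Clusters with no name went into no comparison. Classes were compared at 30 cells or more on each side. All deposited cells were kept, and doublets were not called, since only corrected values per gene were used.

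Log2 ratios used a pseudocount of 0.1 CP10k. With 1 hashed sample a side no test was made. Intervals are Clopper-Pearson for shares and exact Poisson or binomial for levels and ratios, at 95%. The ratio step was tested on simulated data with known changes. Alternatives were other pseudocounts and filters, cells weighted equally, centring, hashtag totals, UMI range, surface gates, an earlier annotation table, clustering resolution and leaving out shared droplets. Every one of the 38 members could be named. Of further lists only the 2 highest and 2 lowest ratios were. The members and lists were chosen with earlier results of these data known.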

Additional observations from a re-analysis of the deposited data

Results flagged for a closer look

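In 4 classes the members' median log2 ratio, sample labelled depleted over sample labelled control, took opposite signs in naive brain and blood. It was -0.3105 in naive brain microglia and 0.0191 in the microglia-like cells of the blood. For T cells it was -0.0733 in naive brain and 0.0455 in blood, and the blood value was -0.35 without shared droplets. For monocytes it was -0.1166 in naive brain and 0.185 in blood. For neutrophils it was -0.1415 in naive brain and 0.162 in blood. Each value rests on 1 hashed sample a side, and the difference between tissues was not tested.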

How the results depend on the processing

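Over the 12 main comparisons, 117 recomputed counts of members stayed within 1.5 times the value reported and 8 did not, and 124 recomputed medians kept their sign and 1 turned. The counts that moved were those of members lower in naive brain T cells (10) and NK cells (7), and higher in blood neutrophils (15) and blood classical monocytes (6), where only genes at 2 CP10k or more were kept, which leaves fewer genes. For blood classical monocytes the count over all members was 26. For blood nonclassical monocytes the count higher was 14 without shared droplets, 11 with hashtag totals of at least 100 and 11 in the surface gate, against 7, and the median turned to 0.0027 without shared droplets; the cause was not tested. T cells of the brain with metastases over blood had a median of 0.20 at Leiden resolution 0.5 and 0.21 at 2.0, against 0.68 at 1.0, where cluster 7 counted as T cells. The surface gates of naive brain T cells and NK cells, and NK cells without shared droplets, held 28, 25 and 28 cells labelled control and were not run. No paired analysis was possible because there was 1 hashed sample per arm and tissue. Members under 0.5 CP10k are limited by few UMIs, and sums over cells of 1 sample show no spread between mice.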
